A study of Mus musculus with 2031 samples.

Results

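Mural cells of the mouse hippocampus were compared with mural cells of the cortex. The members were the cells that the study's own cell list assigned to the type Mural, 135 of 2031 cells in all, and they came from 4 cell suspensions. Cortex 1 held 27 mural cells, cortex 2 held 12, hippocampus 1 held 48 and hippocampus 2 held 48. All cells were from C57BL/6J mice at postnatal day 56. The cells had been dissociated with papain and sorted singly as positive for ACSA-2, an antibody against ATP1B2, negative for the oligodendrocyte antigen O1 and negative for the dead-cell dye 7-AAD, since the study was made to profile astrocytes. Each cell was turned into its own Smart-seq2 library, which reads full-length cDNA. The cortical suspensions came from 1 animal each, both of the same litter, and the hippocampal suspensions were each pooled from 4 littermates, from 2 other litters. Cells of each area were also prepared independently of those of the other. Litter, pooling and preparation therefore follow brain area, and their effects on the values cannot be told apart from it. With 2 suspensions per area the p-values measure only the spread between these suspensions.

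Mural cells wrap the outer face of brain vessels. Pericytes sit on capillaries, inside the basement membrane they share with the endothelium, and smooth muscle cells ring arterioles with a contractile coat. Endothelial PDGF-B recruits them through the receptor PDGFRB, Notch3 signalling maintains them, and ATP-sensitive potassium channels built from Kcnj8 and Abcc9 help to set their membrane potential and so the calibre of the vessel. They are also among the first cells of a vessel to respond to tissue handling and injury.

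Markers of the type were present in nearly every member. Rgs5, a regulator of G-protein signalling that marks brain pericytes, had a count in all but 3 of the 135 cells. Vtn, the gene of vitronectin, was read in 26 of 27, 12 of 12, 48 of 48 and 48 of 48 cells of cortex 1, cortex 2, hippocampus 1 and hippocampus 2. Atp1b2, the antigen of the sort, was read in 27, 12, 48 and 47 cells in the same order. Genes of the contractile apparatus differed in how often they were read. Myl9 had a count in all 39 cortical and in 94 of 96 hippocampal cells, Cald1 in every cell and Tpm1 in 24 of 39 and 45 of 96, while Myh11 was read in 5 of 39 and 11 of 96. Acta2 had a count in 3 cells of cortex 1 and in 1 cell of hippocampus 1, and Tagln in 4 cells of cortex 1 alone. Acta2, Tagln and Myh11, the genes of this set most typical of smooth muscle, were thus read in few of the members.

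Of the 3 cells without Rgs5, 1 had the markers of smooth muscle, which is also mural. The other 2 had fibroblast markers beside a part of the pericyte markers. A cell of cortex 1 summed to 77430 counts per 1000000 gene counts (CPM) over the smooth muscle markers and to 4363 CPM over the pericyte markers. A cell of hippocampus 1 and a cell of hippocampus 2 summed to 12653 and 23028 CPM over the fibroblast markers and to 16800 and 9252 CPM over the pericyte markers, while the fibroblast markers of the whole suspensions summed to between 1133 and 1843 CPM. Vtn alone gave 15237 and 3659 CPM of these pericyte sums, and Pdgfrb stood at 0 and 427 CPM. In the whole suspensions the pericyte markers summed to between 64686 and 81279 CPM. These 2 hippocampal cells also carried 8646 and 5603 CPM of astrocyte markers. Without the 3 cells 0 genes were called too, and several values below are given with and without them.

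Summed markers of other cell types stood far below those of pericytes, though single RNAs of other cells reached higher levels in some suspensions. Summed astrocyte markers stood at 507, 171.4, 727 and 392 CPM in cortex 1, cortex 2, hippocampus 1 and hippocampus 2, and at 401, 171.4, 417 and 284.7 CPM without the 3 cells. Endothelial markers stood at 1955, 3878, 2734 and 2705 CPM, so cortex 2 was highest. Most of this sum was Esam (1135, 1852, 1244 and 1155 CPM) and Bsg (409, 946, 502 and 502 CPM). The other endothelial markers did not share one order of the suspensions. Microglial markers reached at most 67.7 CPM, oligodendrocyte markers 110.9 CPM and neuronal markers 74.2 CPM, with Gad1, Slc17a7 and Syt1 at 0 counts everywhere. Ptgds, an RNA of meningeal and oligodendrocyte lineage cells, stood at 3120 CPM in hippocampus 1, at 23.8 CPM in hippocampus 2 and at 0 in both cortical suspensions. The part of these RNAs in the results below was not tested, except where a value without the 3 cells is given.

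Gene counts per cell were similar in the 4 suspensions, but some measures of quality separated the areas. The median mural cell held 1236560, 1185260, 1283510 and 1148900 gene counts in cortex 1, cortex 2, hippocampus 1 and hippocampus 2, and the shallowest cell 632585. Medians of 1687, 1618, 1624 and 1613 genes were read per cell. At a fixed 500000 counts per cell these medians were 1574, 1516.5, 1493.5 and 1487, with no overlap between areas. Gene counts per spike-in count had medians of 14.7, 13.9, 12.2 and 13.6, also without overlap, as a measure of the RNA in a cell. Reads outside annotated exons took a median of 9.81% and 8.32% in the cortical and 10.96% and 11.8% in the hippocampal suspensions, and the areas did not overlap in this share. An exact permutation test of 2 against 2 suspensions cannot go below p = 0.3333, the value it gave for these 3 measures. Their part in the results below was not tested. Summed over cells, the suspensions held 35945356, 14794597, 65239359 and 56682280 gene counts, so the sum for cortex 2 rested on the fewest cells and reads.

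Mural cells made up a larger share of the typed cells in hippocampal than in cortical suspensions. The share was 5.38% of 502 cells in cortex 1 (Wilson 95% interval 3.72 to 7.71) and 2.32% of 517 cells in cortex 2 (1.33 to 4.01). It was 10.4% of 461 cells in hippocampus 1 (7.94 to 13.5) and 9.54% of 503 cells in hippocampus 2 (7.27 to 12.4). Both hippocampal shares lay above both cortical shares, by 6.13 percentage points between the means, with the exact two-sided permutation p of 0.3333 that is the smallest 2 against 2 suspensions can give. For 33 further cells, all of cortex 1, the copy of the cell list used here held no type. If all of them were mural, the share of cortex 1 would be 11.2% and would overlap with the hippocampal shares, and if none were, it would be 5.05%. The intervals cover counting error only, and the sort was set for astrocytes, so the share is one of sorted cells and not of the tissue.

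No gene passed edgeR's test between hippocampal and cortical mural cells. The counts of all cells of a suspension were summed, and the 2160 genes with a count in over 25% of the mural cells of either area were fitted with edgeR's quasi-likelihood test. At a Benjamini-Hochberg adjusted p under 0.05, 0 genes were higher and 0 lower (0.0% called), and the lowest adjusted p was 0.260. At an unadjusted p under 0.05, 55 genes were higher in hippocampus (2.55% of those tested) and 65 lower (3.01%). DESeq2 on the same sums called 11 genes higher and 11 lower, 1.02% of those tested. In what follows, called refers to edgeR unless DESeq2 is named. Without cortex 1, edgeR called 88 genes higher and 18 lower, and without cortex 2 it called 5 higher and 3 lower. In those fits the remaining cortical suspension is assumed to vary as the hippocampal ones do.

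The precision of the fit sets what the 0 calls can mean. The 95% interval of a log2 fold change had a median width of 2.63, and for 160 of the 2160 genes it lay within 1 of zero on the log2 scale. The cortical suspensions differed more from each other than the hippocampal ones. Across genes, which are not independent replicates, log values correlated at r = 0.872 between the 2 cortical sums and at r = 0.968 between the 2 hippocampal sums. Between areas, r was 0.946 for cortex 1 with hippocampus 1 and 0.875 for cortex 2 with hippocampus 2. Single cells weighed heavily in the smallest sum. In cortex 2, a single cell held over 50% of the counts for 842 of the 2160 genes, compared with 6.81% of genes in cortex 1, 2.87% in hippocampus 1 and 3.01% in hippocampus 2. Over 50% of the counts of at least 1 suspension lay in a single cell for 926 of the 2160 genes (42.9%) and for 16 of the 22 genes that DESeq2 called (72.7%).

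**Figure D1:**
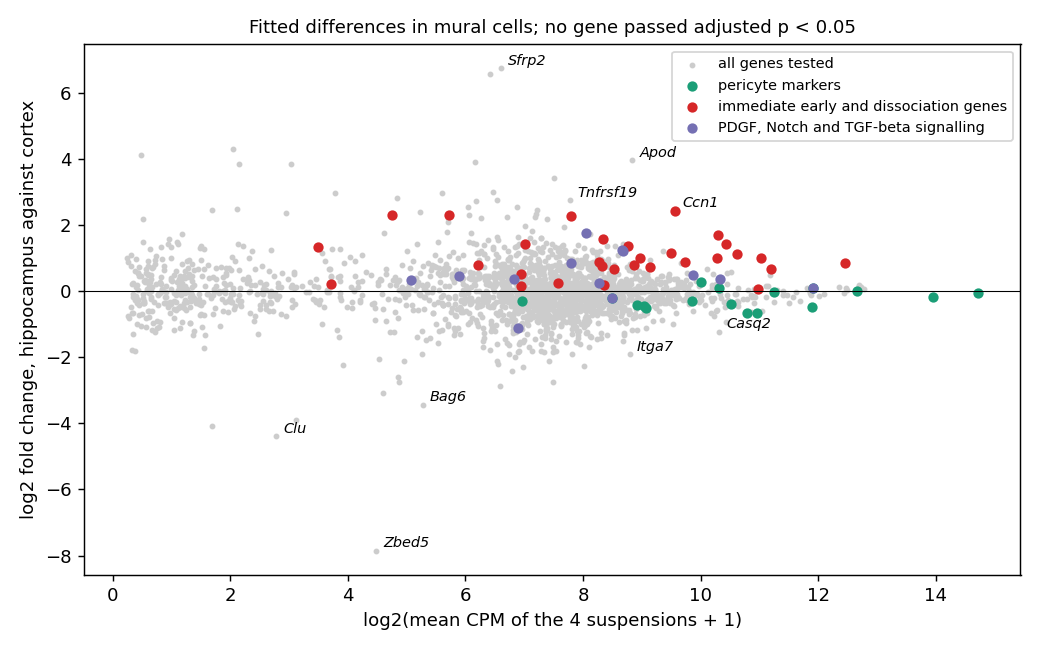
Fitted log2 fold change of hippocampal against cortical mural cells (vertical axis) against the mean level over the 4 suspensions (horizontal axis, log2 of CPM plus 1) for the 2160 genes tested, 1 point a gene. Pericyte markers lie between -0.65 and 0.27, with a median of -0.28. The 30 immediate early and dissociation genes all lie above 0, with a median of 0.95.

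Since edgeR called no gene, the genes with its lowest p whose sums did not overlap between areas are described, 10 in each direction. None of them passed edgeR's test, while DESeq2 called 9 of the 10 higher and 7 of the 10 lower ones, among them Apod, Ccn1, Tnfrsf19, Sfrp2, Dcdc2a, Fosb and Bag6. Apold1, Casq2 and Itga7 were among those that DESeq2 did not call. The 20 genes are to be read against a background in which both hippocampal sums lay above both cortical sums for 436 genes (20.2%) and below them for 395 (18.3%). Of the 10 genes with higher values, 6 entered the test through hippocampal cells alone: Apod, Ccn1, Tnfrsf19, Sfrp2, Dcdc2a and Arhgef40. Of the 10 with lower values 7 entered through cortical cells alone, among them Itga7, Bag6, Ubl4a, Ap2a2, Hadhb and Chd2. For these 13 genes the filter itself favours a difference.

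Ccn1 (also Cyr61, chromosome 3, 145646976 to 145649981, minus strand), a secreted matrix protein and target of YAP and serum response factor, had 283.98 CPM in cortex 1, 186.2 in cortex 2, 1287 in hippocampus 1 and 1265 in hippocampus 2. Both hippocampal values lay far above both cortical ones. The log2 fold change was 2.44 ± 0.33 (SE, n = 2 against 2 suspensions, edgeR adjusted p = 0.392), with a 95% interval of 1.63 to 3.25. It entered the test through hippocampal cells alone, with a count in 9 of 39 cortical and 31 of 96 hippocampal cells, so the filter favours a difference. By suspension the share of cells with a count was 18.5%, 33.3%, 29.2% and 35.4% in the same order. Without the 3 cells lacking Rgs5 it stood at 214.8, 186.2, 1338 and 959 CPM and its log2 fold change was 2.52.

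Tnfrsf19, a receptor of the TNF family also known as Troy, had 58.5 and 54.2 CPM in cortex 1 and 2 and 373.2 and 387 CPM in hippocampus 1 and 2. Its log2 fold change was 2.75 ± 0.45 (SE, edgeR adjusted p = 0.681). A count was found in 3 of 27 and 1 of 12 cortical cells and in 14 of 48 and 17 of 48 hippocampal cells. With each cell thinned to 500000 counts the shares were 11.1%, 8.33%, 29.2% and 33.3%. Dcdc2a, a doublecortin-domain gene, had a similar pattern, with 49.8, 50.96, 230.8 and 247.3 CPM and a count in 1, 1, 13 and 15 cells. Sfrp2, a secreted Wnt antagonist, had 2.93, 0.559, 65.3 and 316.96 CPM and a count in 2, 1, 13 and 13 cells, with a log2 fold change of 6.74 ± 1.34 (SE, edgeR adjusted p = 0.836).

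Apod, which encodes the lipid carrier apolipoprotein D, had the lowest p of all genes and rested on 2 cells. Its level was 54.9 and 54.6 CPM in cortex 1 and 2 and 1091 and 623 CPM in hippocampus 1 and 2, a log2 fold change of 3.97 ± 0.43 (SE, edgeR adjusted p = 0.260). In hippocampus 1, 92.6% of its counts came from 1 cell and in hippocampus 2, 80.4%, and these were the 2 cells with high fibroblast markers. Without the 3 cells lacking Rgs5 its levels were 57.5, 54.6, 84.2 and 124.3 CPM, and the log2 fold change was 0.90 (edgeR adjusted p = 0.837). Apoe, a second apolipoprotein, went from 282.5, 190, 731 and 470 CPM with all cells to 233.8, 190, 135 and 179.4 CPM without the 3, and its fitted log2 fold change from 1.35 to -0.43, neither called.

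The other 5 genes of this group with higher values were Fosb, Dnaja1, Chd9, Arhgef40 and Apold1. Dnaja1, a co-chaperone of the HSP70 family, stood at 128, 128.8, 501 and 349.2 CPM. Apold1, an early-response gene of vessels, stood at 459, 330.8, 1061 and 779 CPM and was read in 11, 2, 24 and 33 cells. Chd9, a chromatin remodeller, stood at 16.5, 19.7, 94.6 and 74.5 CPM. That their hippocampal values exceeded the cortical ones without overlap follows from the rule that chose them.

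Casq2, which encodes the calcium-binding calsequestrin of the sarcoplasmic reticulum, was read in a majority of cortical cells and had lower values in hippocampus. Its levels were 1509 CPM in cortex 1, 2079 in cortex 2, 748 in hippocampus 1 and 776 in hippocampus 2. The log2 fold change was -1.23 ± 0.25 (SE, edgeR adjusted p = 0.836), with a count in 59.3%, 83.3%, 45.8% and 33.3% of cells. Itga7, a laminin-binding integrin subunit found in muscle and pericytes, had 953, 445, 216.1 and 155 CPM and a count in 16 of 27, 5 of 12, 9 of 48 and 10 of 48 cells. Its log2 fold change was -1.91 ± 0.48 (SE, edgeR adjusted p = 0.836). Itga7 entered the test through cortical cells alone, so the filter favours its difference, while Casq2 passed in both areas. Sh2b3, the adaptor LNK that dampens cytokine signalling, had 512, 656, 260.5 and 225.9 CPM.

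The other genes with lower values included Bag6, Ubl4a, Ap2a2, Ube2b, Hadhb and Chd2, genes of general cell functions. All of these but Ube2b entered the test through cortical cells alone, so the filter favours a difference in them. Bag6 and Ubl4a encode partners in one complex that escorts tail-anchored membrane proteins. Bag6 stood at 48.0, 89.7, 5.22 and 7.46 CPM, with 61.9% of the counts of cortex 1 and 81.5% of those of cortex 2 in 1 cell each. Ube2b, a ubiquitin-conjugating enzyme, stood at 352.2, 388, 112.8 and 132.9 CPM, with at most 29.6% of a suspension's counts in 1 cell. It was read in 17 of 27, 6 of 12, 12 of 48 and 15 of 48 cells, a larger part of the cortical than of the hippocampal cells.

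**Figure D2:**
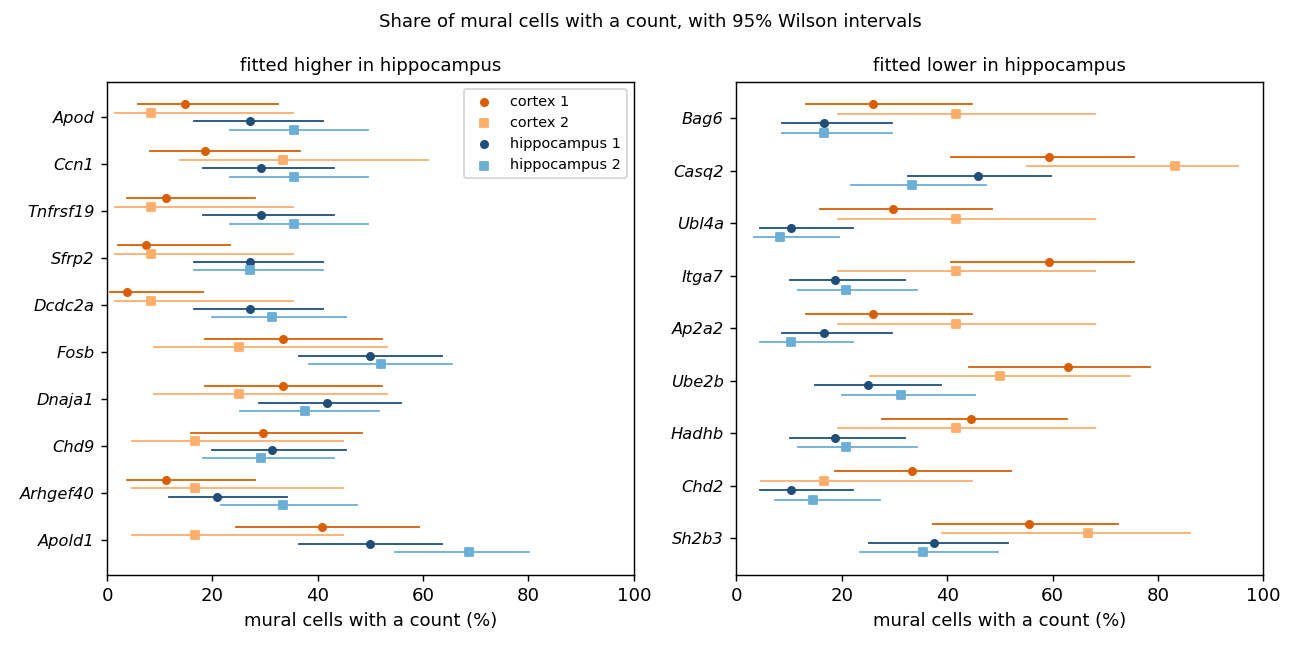
Share of mural cells with at least 1 count (horizontal axis, percent) for the 10 genes with higher and 9 with lower hippocampal values, by suspension, with Wilson 95% intervals as lines. For Tnfrsf19, Sfrp2 and Dcdc2a, which entered the test through their hippocampal share alone, the cortical shares lie between 3.70% and 11.1% and the hippocampal shares between 27.1% and 35.4%, a difference that the filter selects for. The intervals of cortex 2, with 12 cells, are the widest.

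Immediate early and dissociation genes are transcription factors such as Fos, Jun and Egr1, their feedback regulators and heat shock genes, which cells induce within minutes of stimulation or handling. Of the 42 members 30 were tested. EdgeR called 0 of them and DESeq2 called 2, Ccn1 and Fosb, both higher, out of its 22 calls. All 30 had a positive log2 fold change, with a median of 0.95, compared with -0.02 over all genes tested. Both hippocampal sums lay above both cortical sums for 23 of 30 and below them for 0, beside 20.2% and 18.3% of all genes. An unadjusted p under 0.05 was reached by 7 of 30 in the higher direction (2.55% of all genes) and by 0 in the lower. Through hippocampal cells alone 4 members entered the test, and among the 23 that passed in both areas the median was 0.88, with 18 above. Without the 3 cells lacking Rgs5 the median was 1.04 and 12 of 30 had an unadjusted p under 0.05 in the higher direction, beside 2.82% of all genes in that fit. Zfp36, an RNA-binding protein that destabilises cytokine transcripts, stood at 320.5, 111.99, 388 and 407 CPM with all cells. It stood at 112.7, 111.99, 399 and 415 CPM without the 3. With all cells, 66.4% of its cortex 1 counts lay in 1 cell.

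Fos had 5654 CPM in cortex 1, 2344 in cortex 2, 7771 in hippocampus 1 and 6764 in hippocampus 2, a log2 fold change of 0.86 ± 0.43 (SE, edgeR adjusted p = 0.836). Jun, its partner in the AP-1 factor, had 1029, 476, 2054 and 1973 CPM and a log2 fold change of 1.42 ± 0.39. Fosb had 155, 167.1, 535 and 429 CPM, so its cortical suspensions were nearly equal, and a log2 fold change of 1.58 ± 0.37. Btg2, an antiproliferative gene induced by p53 and by growth factors, had 877, 301.03, 2014 and 1825 CPM, and Hspa1a, an inducible HSP70, had 1011, 635, 1566 and 1760 CPM. For these genes cortex 2 was lowest, save for Fosb, and hippocampal values did not overlap with cortical ones. Dusp6 (436, 234.3, 652 and 689 CPM) and Rhob (375.9, 304.6, 571 and 612 CPM) completed, with Ccn1, the 7 of unadjusted p under 0.05. Hspa8, the constitutive HSP70, had 1948, 1955, 2255 and 1850 CPM and a log2 fold change of 0.07 ± 0.20.

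**Figure D3:**
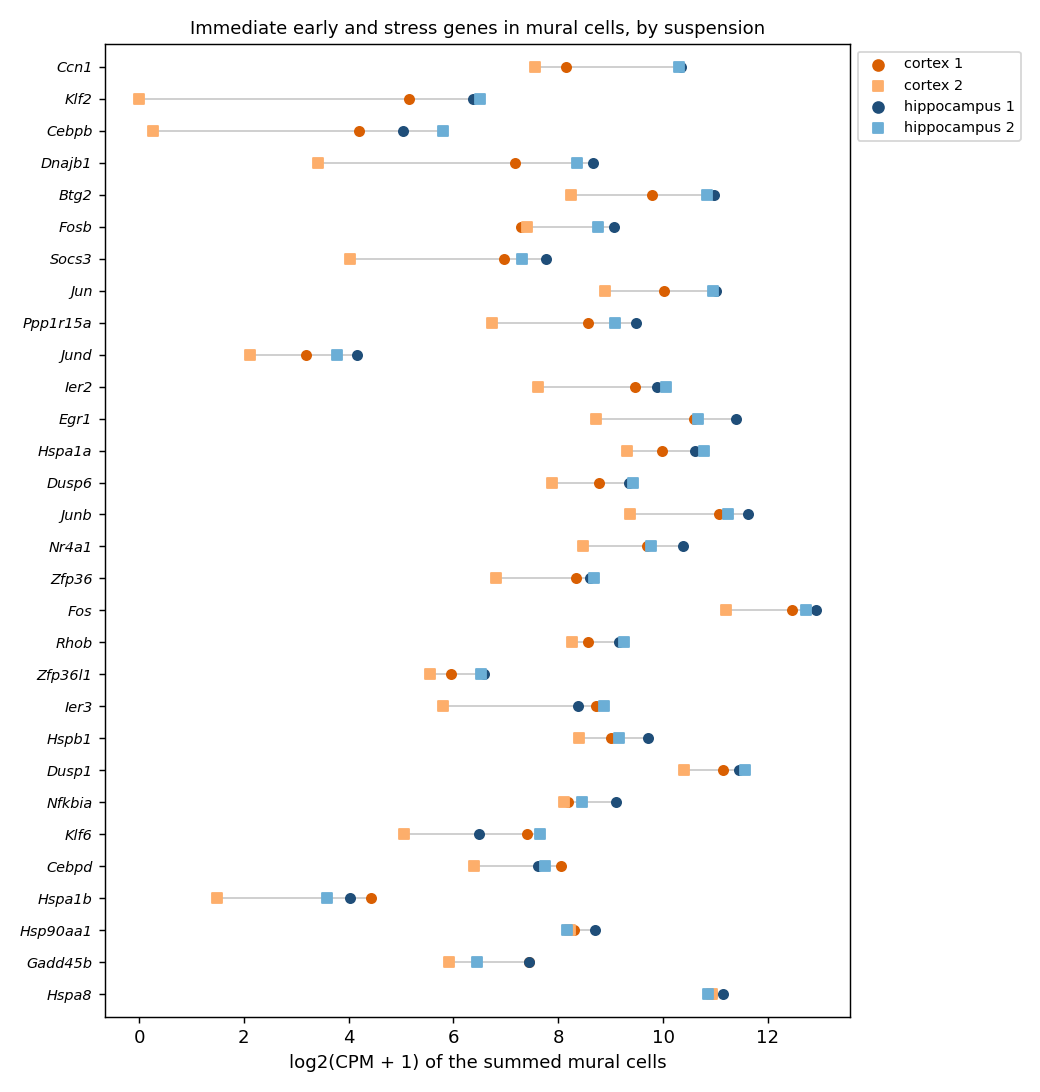
Level of each of the 30 tested immediate early and dissociation genes in the summed mural cells of the 4 suspensions (horizontal axis, log2 of CPM plus 1), ordered by fitted log2 fold change. For 28 of 30 genes cortex 1 lies to the right of cortex 2, and for 23 of 30 both hippocampal points lie to the right of both cortical points.

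Much of this difference lay in cortex 2. The median log2 difference over the 30 genes was 1.39 between cortex 1 and cortex 2, 2 suspensions of the same area and litter, and 28 of 30 genes were higher in cortex 1. Against cortex 1, the median difference was 0.62 for hippocampus 1 and 0.38 for hippocampus 2, with 25 of 30 genes higher in each. Against cortex 2 it was 1.85 and 1.75. The 2 hippocampal suspensions differed by 0.17. The spread within cortex was thus larger than the difference between hippocampus and cortex 1. In cortex 2, a single cell held over 50% of the counts for 15 of the 30 genes, beside 842 of all 2160, and 1 gene had no count. That share ranged from 18.98% for Hspb1 to 100%, with 25.2% for Dusp1, 42.7% for Ccn1, 65.7% for Fos and 76.1% for Jun. Without cortex 1 the median was 1.95 and edgeR called 15 of the 30 genes higher, beside 88 of all 2160, and without cortex 2 it was 0.56 and edgeR called 1, Ccn1, beside 5 of all 2160. With 12 cells drawn from each suspension the median was 1.64, and 18 rather than 23 of the 30 genes lay above. The share of all genes above in that draw is not given.

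Per cell, the number of these 30 genes with a count had a median of 16 in cortex 1, 9 in cortex 2, 16.5 in hippocampus 1 and 17 in hippocampus 2. Cells ranged from 3 to 23, from 4 to 22, from 4 to 27 and from 3 to 28. The median was lower in cortex 2 than in the other 3, while the ranges overlapped in all 4 suspensions. They reached furthest in the hippocampal suspensions, which also held the most cells, and a range widens with the number of cells. The exact permutation p was 0.333. With each cell at 500000 counts the medians were 15, 8.5, 16.5 and 17. Among cells prepared with a template-switching oligonucleotide that had been frozen and thawed once, 4 of them from cortex 2, the count of genes with both hippocampal sums above was 6 of 30, and among those prepared with oligonucleotide not thawed before it was 21 of 30. The share of all genes with both hippocampal sums above is not given for these 2 sets, so the 6 and the 21 have no background of their own. With all cells that share was 20.2%. The median log2 fold change of the list was 0.91 and 1.03 in these sets, compared with 0.95 with all cells.

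**Figure D4:**
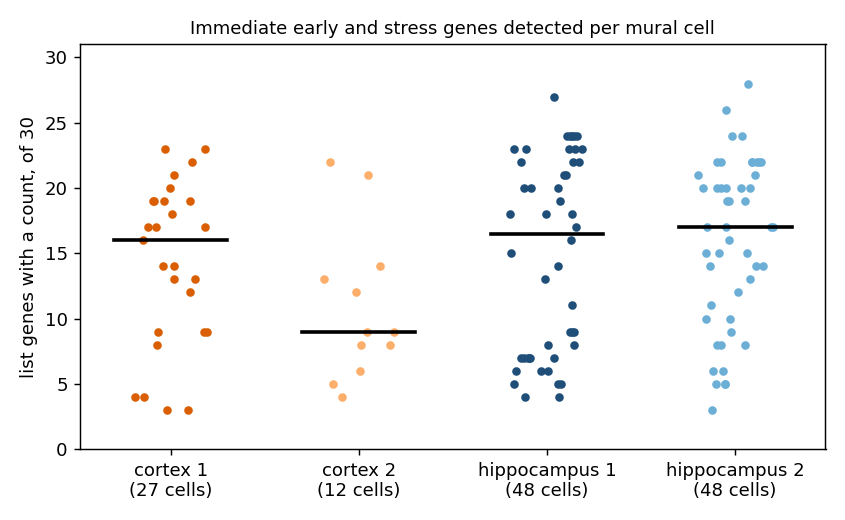
Number of the 30 tested immediate early and dissociation genes with a count in each mural cell (vertical axis), 1 point a cell, with the median of each suspension as a black line. The medians are 16, 9, 16.5 and 17, and cells with few and with many of these genes occur in every suspension.

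Astrocytes and endothelial cells of the same suspensions gave other values for these genes. Fitted on their own sums, the 30 genes had a median log2 fold change between hippocampus and cortex of 0.95 in mural cells, -0.22 in all astrocytes, -0.84 in the astrocyte subtype AST3, which was found in both areas, and -0.03 in endothelial cells, of which 9, 3, 6 and 12 were listed in the 4 suspensions. In the fit that tests whether the hippocampal difference of mural cells differs from that of astrocytes, 10 of the 30 genes had an unadjusted p under 0.05, beside 6.34% of all genes tested, and 0 passed adjustment. For 9 of them the difference was higher in mural cells than in astrocytes (2.96% of all genes) and for 1, Hspb1, it was lower (3.38%). The study found AST1 and AST4 mainly in hippocampus and AST2 mainly in cortex. The area difference of all astrocytes, and the interaction with them, therefore mix subtype with area. Some of the 30 genes were near 0 in astrocytes. Hspa1b (0.008, 0.004, 0 and 0 CPM) and Hspb1 (0.147, 0.046, 0.466 and 0.847 CPM) were both among the 10. The AST3 values included -14.0 for Socs3, -10.9 for Gadd45b and -10.8 for Ier3, all genes of low level in astrocytes. The part of such low levels in these medians was not tested. Jun differed between areas by 1.42 in mural cells and by -0.35 in astrocytes (interaction p = 0.00723, edgeR adjusted p = 0.685). Ccn1 differed by 2.44 in mural cells and by -0.82 in astrocytes (interaction p = 0.00175, edgeR adjusted p = 0.631), and it entered the test through hippocampal mural cells alone, so the filter favours its difference.

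Over all 2160 genes this interaction gave 0 calls, with 6.34% of genes at an unadjusted p under 0.05 and a lowest edgeR adjusted p of 0.231. The 5 genes of lowest p were Ndufa4l2, Trpv2, Cald1, Slc5a5 and Tnfrsf19. The first 4 had low levels in astrocytes, and Slc5a5 had no count in cortical ones. Cald1, the actin-binding caldesmon, had 2457, 3422, 2554 and 2855 CPM in mural cells, a log2 fold change of -0.12 ± 0.22, and 1.15, 2.34, 19.2 and 28.4 CPM in astrocytes. Tnfrsf19 had 310, 415, 247.4 and 270.8 CPM in astrocytes, a log2 fold change of -0.48, compared with 2.75 in mural cells. Tnfrsf19 and Trpv2 entered the test through hippocampal mural cells alone and Slc5a5 through cortical ones alone, so the filter favours a difference in these 3 genes. Without cortex 1 the interaction called 35 genes higher and 14 lower, and without cortex 2 it called 1 and 2.

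Genes of PDGF, Notch and TGF-beta signalling had a median log2 fold change of 0.37 over the 13 of 43 that were tested. Both hippocampal sums lay above both cortical sums for 7 of 13 and below for 0, beside 20.2% and 18.3% of all genes, and 2 had an unadjusted p under 0.05 in the higher direction, beside 2.55%. Hes1, the transcriptional repressor induced by Notch, had 276.6 and 202.7 CPM in cortex 1 and 2 and 652 and 488 CPM in hippocampus 1 and 2. Its log2 fold change was 1.25 ± 0.37 (SE, edgeR adjusted p = 0.836). Id3, an inhibitor of helix-loop-helix factors and target of BMP signalling, had 194.8, 298.1, 698 and 446 CPM and was read in 5 of 27, 4 of 12, 25 of 48 and 20 of 48 cells. Its log2 fold change was 1.21 ± 0.42 (SE, edgeR adjusted p = 0.836). Without the 3 cells lacking Rgs5, Id3 stood at 183.3, 298.1, 586 and 396 CPM with a log2 fold change of 1.03 and an unadjusted edgeR p of 0.0521, and Hes1 had a log2 fold change of 1.39. Id3 entered the test through hippocampal cells alone, so the filter favours its difference. Among the 11 members that passed in both areas, 6 lay above and 0 below. Id1 followed with 204.04, 110.8, 344.4 and 221.2 CPM, and Eng, a TGF-beta co-receptor, with 831, 726, 893 and 1281 CPM.

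Among the receptors, Tgfbr2 was not tested. Pdgfrb, the PDGF receptor of pericytes, had 4017, 3431, 4025 and 4023 CPM, a log2 fold change of 0.11 ± 0.17 with a 95% interval of -0.30 to 0.53. Notch3 had 410, 355.7, 358.5 and 306.9 CPM, a log2 fold change of -0.20 ± 0.34. Hes1 and Id1, like most of the immediate early genes, were lowest in cortex 2, while Id3 was lowest in cortex 1. The part of an early response in their values was not tested.

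Pericyte markers had log2 fold changes from -0.65 to 0.27 between areas, and most values leaned lower in hippocampus. All 17 markers were tested, 0 were called, and the median log2 fold change was -0.28, with both hippocampal sums below both cortical sums for 6 of 17 and above for 1, beside 18.3% and 20.2% of all genes. The study typed the cells with such genes, so their presence in all suspensions is a property of the choice of cells. Rgs5 had 14973, 18462, 13103 and 16615 CPM (log2 fold change -0.17, 95% interval -0.61 to 0.26). Vtn had 23180, 31710, 27555 and 25298 CPM (-0.05, -0.48 to 0.37). Both intervals exclude a change of 1 on the log2 scale. Those of some other markers do not: the intervals of P2ry14, Art3, Kcnj8 and Abcc9 reach below -1.

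The lowest p among the markers were those of P2ry14 and Art3. P2ry14, the receptor for UDP-glucose, had 2605, 2244, 1549 and 1542 CPM, a log2 fold change of -0.65 ± 0.19 (SE, edgeR adjusted p = 0.836). Art3, of the ADP-ribosyltransferase family, had 2241, 2092, 1547 and 1218 CPM, a log2 fold change of -0.65 ± 0.22 (SE, edgeR adjusted p = 0.836). In both genes the 2 cortical suspensions were close to each other and lay above both hippocampal ones.

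**Figure D5:**
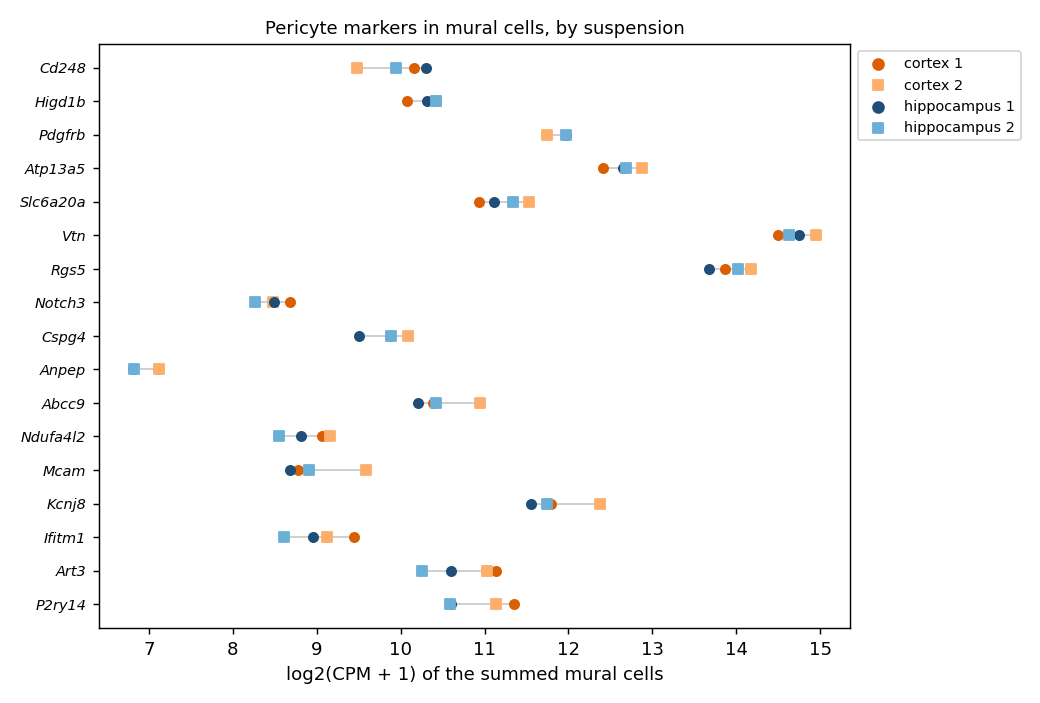
Level of the 17 pericyte markers in the summed mural cells of the 4 suspensions (horizontal axis, log2 of CPM plus 1), ordered by fitted log2 fold change. P2ry14 and Art3, at the bottom, have both hippocampal points to the left of both cortical points, and Rgs5 and Vtn show the areas intermixed.

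Among 26 tested of 71 genes of ion channels and vascular tone the median log2 fold change was -0.04, with 5 genes above and 6 below without overlap, beside 20.2% and 18.3% of all genes. At an unadjusted p under 0.05, 3 of the 26 were lower, beside 3.01% of all genes. P2ry14 and Ano1 were among them. Ano1, a calcium-activated chloride channel that depolarises contractile mural cells, had 1498, 2128, 1056 and 834 CPM, a log2 fold change of -0.94 ± 0.27 (SE, edgeR adjusted p = 0.836). The potassium channel subunits gave 3535, 5331, 3008 and 3420 CPM for Kcnj8 and 1340, 1973, 1178 and 1375 CPM for Abcc9. In both genes cortex 2 stood above the other 3 suspensions, and the fitted differences of -0.46 ± 0.24 and -0.38 ± 0.27 did not pass. The nitric oxide receptor subunits Gucy1a1 (948, 1070, 983 and 918 CPM) and Gucy1b1 (865, 1025, 1119 and 992 CPM) overlapped between areas.

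Smooth muscle markers were tested for 9 of 19 genes, the others being read in too few cells. Their median log2 fold change was -0.29, with 0 genes above and 0 below without overlap, beside 20.2% and 18.3% of all genes. Without the 3 cells lacking Rgs5 the median was -0.06. Myl9, the regulatory myosin light chain, had 4348, 2917, 2963 and 2969 CPM, and 3890, 2917, 3079 and 3029 CPM without those cells. Acta2 was not tested: it had 1995 CPM in cortex 1, 78.9% of it from 1 cell, 29.1 CPM in hippocampus 1 and 0 counts in the others. Myh11 had 322.1, 17.3, 36.7 and 84.6 CPM. Cells over 1000 CPM of Acta2, Tagln, Myh11 and Cnn1 numbered 4 in cortex 1, 0 in cortex 2, 1 in hippocampus 1 and 3 in hippocampus 2.

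Fibroblast markers were tested for 3 of 12 genes. Igf2, a growth factor of meningeal and perivascular cells, had 111.8, 128, 321.7 and 224.2 CPM and a log2 fold change of 1.18 ± 0.47 (SE, edgeR adjusted p = 0.836). Col1a2, a fibrillar collagen chain, had 248.97, 159.6, 375.6 and 342.2 CPM. Slc6a13, a GABA and taurine transporter, had 311.9, 453.9, 453.6 and 292.1 CPM, and its areas overlapped. Summed over the list, the markers did not overlap with all cells, at 1133, 1146, 1843 and 1537 CPM, and overlapped without the 3 cells lacking Rgs5, at 1174, 1146, 1419 and 1093 CPM. Without these cells Igf2 stood at 117.1, 128, 286 and 193.9 CPM, so its areas still did not overlap, with a count in 30 and 26 of 48 hippocampal and in 9 of 27 and 5 of 12 cortical cells when all cells are taken.

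Tested matrix genes of pericytes had log2 fold changes from -0.36 to 0.56. Other members of the list did not pass the filter, and some of these did not overlap between areas, in either direction. Col5a2 had 121.6, 270.6, 2.51 and 26.2 CPM and Nid2 had 7.97, 0, 73.5 and 152.9 CPM, both untested. Of 32 genes of basement membrane and collagens 15 were tested, with a median log2 fold change of -0.002, 1 above and 0 below, beside 20.2% and 18.3% of all genes. That gene was Bgn, the proteoglycan biglycan, with 1099, 1170, 1558 and 1778 CPM and a log2 fold change of 0.56 ± 0.21 (SE, edgeR adjusted p = 0.836). Sparcl1, a matricellular protein, had 5528, 5849, 5620 and 5243 CPM, and Lama4, a laminin chain of vessels, had 465, 612, 546 and 550 CPM. Solute carriers of mural cells, 15 of 30 tested, had a median of -0.04. The organic anion transporter Slc22a8 had the lowest p of them, with 1913, 2574, 1322 and 1590 CPM and a log2 fold change of -0.62 ± 0.24.

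Transcription factors gave no marked difference between areas, with 20 of 57 tested, a median of 0.01, 4 above and 2 below, beside 20.2% and 18.3% of all genes. Mef2c had 425, 591, 312.5 and 224.1 CPM and Foxs1 376.8, 461, 496 and 726 CPM. Forebrain patterning factors Lhx2, Emx2 and Otx1 were at 0 counts in every mural cell. Of 9 tested genes of cytokines and innate immunity, Il34, a ligand of the microglial receptor CSF1R, had the lowest p. The list's median log2 fold change was 0.43, with 5 members above and 2 below, beside 20.2% and 18.3% of all genes, and 0.28 without the 3 cells lacking Rgs5. Il34 lay below: it had 1074, 891, 418 and 576 CPM, a log2 fold change of -0.98 ± 0.30 (SE, edgeR adjusted p = 0.836), and was read in 25 of 27, 8 of 12, 26 of 48 and 30 of 48 cells.

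Metabolic genes showed no common direction. The 12 tested genes of the mitochondrial genome had a median log2 fold change of 0.01, and their list took a median of 1.47%, 1.28%, 1.40% and 1.42% of a cell's gene counts. Of 11 tested glycolytic genes 3 lay above and 3 below. Ldha stood at 255.98, 520, 684 and 796 CPM and Ldhb, the other lactate dehydrogenase subunit, at 305.5, 178.97, 135.8 and 106.5 CPM. Ldhb entered the test through cortical cells alone, so the filter favours its difference. Among the 10 glycolytic genes that passed in both areas, 3 lay above and 2 below. Of 19 tested antioxidants and angiocrine factors 6 lay above and 4 below, with a median of 0.10. Over all genes 20.2% lay above and 18.3% below. Txnip, a thioredoxin inhibitor, was among the 3 of 19 with higher values at an unadjusted p under 0.05 (2.55% of all genes), with a log2 fold change of 1.19 ± 0.40, beside Apod and Apoe, whose values without the 3 cells lacking Rgs5 are given with them. Without those cells 1 of the 19 was higher and 1 lower at an unadjusted p under 0.05. Xist was at 0 counts in all 135 cells and the Y-linked gene Ddx3y was read in 5, 5, 10 and 10 cells.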

How the data were processed

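The authors mapped Smart-seq2 reads with STAR 2.5.2b to GRCm38.p5 and counted unique reads per gene with HTSeq, after FastQC 0.11.4. What was deposited by the authors are raw counts for each gene and cell. Cell types were those of the authors' list. For 134 mural cells the count files were used. 1 cell had its counts taken from the deposited table of the series, whose totals equalled those of the files in 134 of 134 cells, and 1896 other columns of that table were not used. Spike-in counts, reads outside exons and ambiguous reads were left out of library sizes. Symbols and positions were from Gencode M21, a later annotation of the same build, and 49412 of 49671 identifiers had one.

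Counts were summed per suspension, and genes with a count in over 25% of the mural cells of either area were fitted with edgeR 4.0.16 in R 4.3.3 (TMM, robust quasi-likelihood test, 2 residual degrees of freedom, biological coefficient of variation 0.525). CPM are per 1000000 gene counts after TMM scaling. SE is that of the log2 fold change. The interaction with astrocytes kept the suspension as a block. Other tools were DESeq2 1.42.0, limma 3.58.1, Python 3.11.15 and scipy 1.17.1. The tests were checked on simulated counts. Smart-seq2 has no molecular tags, so the counts are of reads. Wilson intervals are of numbers of cells and cover counting error only, while those of fold changes include the spread between suspensions.

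The members and gene lists were chosen with earlier results of these data known. Named genes are the 10 of lowest p in each direction whose sums did not overlap, without predicted genes and pseudogenes, those of lowest p in each list and in the interaction, a set of markers, and others of the immediate early list. Genes outside that rule (other members of the lists, and the top cells' genes) were chosen after their values were seen, and some genes that the rule named are not reported here. Alternatives covered normalization, DESeq2, filters, dispersion, the replicate block, each suspension left out, cells weighted equally, 12 cells per suspension, thinning, subsets of cells and preparation. Settings added after seeing the data were cells of 1 freeze/thaw cycle, exclusion of the 3 cells lacking Rgs5, and the settings of the immediate early list.

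Same-numbered suspensions of the areas came from different litters, and their deviations from the area means correlated at -0.013 across genes, so the numbers do not pair them.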

Additional observations from a re-analysis of the deposited data

How the results depend on the processing

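The count of 0 called genes held under normalization, filters, thinning and subsets of cells. DESeq2 called 11 higher and 11 lower. Leaving out 1 suspension gave 0 to 88 higher and 0 to 18 lower, with the highest counts without cortex 1. With the replicate block the counts were 0 and 0, and 83 genes had an unadjusted p under 0.05 compared with 120 without the block. The interaction with astrocytes called 1 higher and 3 lower with no replicate block, 0 and 1 with AST3 in place of all astrocytes, and 0 to 35 higher and 0 to 14 lower with 1 suspension left out. The median log2 fold change of the immediate early list ranged from 0.56 to 1.95 with 1 suspension left out, and 6 rather than 23 of its members lay above with cells of 1 freeze/thaw cycle only, where the median was 0.91, compared with 0.95 in all cells. The difference in gene counts per cell, 5299 between medians, was -11816 between means, and -62007 to 72604 with 1 suspension left out. That in genes per cell, -34.0, became -68.5 to 0.50. With 1 suspension left out the log2 difference was -0.29 to 0.043 for pericyte, -0.51 to 0.48 for endothelial and -0.63 to 8.29 for microglial markers. It kept its sign but varied in size for smooth muscle (-0.67 to -0.070) and fibroblast markers (0.43 to 0.69). The same held for astrocyte (0.076 to 1.64) and neuronal markers (1.47 to 9.83). In cortex 2 the neuronal markers stood at 0.070 CPM and the microglial ones at 0.14 CPM. The 9.83 and the 8.29, both without cortex 1, rest on these values near 0 and do not measure the size of a difference. With 0 freeze/thaw cycles it was 0.033 for endothelial and -0.78 for microglial markers. Oligodendrocyte markers were at 0 counts in cortex 2 and gave no difference. Causes were not tested. Of the named genes, 31 of 95 had another sign in at least 1 setting. Cortex 2 held 12 cells. Both 12 cells per suspension and cells thinned to 500000 counts gave 0 calls, and with 12 cells the immediate early median was 1.64, with 18 members above. For the 12 cells and the cells of 1 freeze/thaw cycle, the share of all genes above is not given.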
